A study of Mus musculus with 18 samples.

Results

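The genes described are 10 members of the epidermal growth factor (EGF) receptor system in the mouse thyroid: the ligands Egf, Tgfa, Areg, Ereg, Btc and Hbegf, the receptors Egfr, Erbb2 and Erbb3, and the receptor inhibitor Errfi1. They were found by the gene name that the scanner files give each probe, control spots left out, which matched 23 of the 41174 gene probes on the array. Of these, 12 probes of 7 members passed the filter on dim signals and were tested, among 19082 probes of 14664 genes in all.

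EGF family ligands are made as membrane-bound precursors, cut free by metalloproteases, and bind receptor tyrosine kinases of the ErbB family, which then pair and signal through adaptors to the RAS and ERK kinases and to PI3K. ErbB2 binds no ligand of its own, ErbB3 has little kinase activity, and each signals mainly as a partner of another family member. In cultured thyroid follicular cells EGF is known as a mitogen that lowers differentiated functions such as iodide uptake. Errfi1, also called Mig6, is induced by receptor signalling and blocks the kinase domain of the receptor.

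The study followed the proliferation of thyroid cells after surgical removal of part of the gland, and its stated plan was a comparison among 4 groups. All arrays carried thyroid of male C57BL/6 mice: 5 arrays for the central area of dissected thyroid (after partial thyroidectomy), 5 for the central area of normal thyroid, 5 for the peripheral area of dissected thyroid and 3 for the peripheral area of normal thyroid, each from a right or a left lobe. The areas were cut from frozen sections with a laser, and their RNA was amplified and labelled with Cy5. The same commercial mixture of Swiss Webster mouse RNA, labelled with Cy3, was hybridised on every array, and no dyes were swapped. The time after surgery and the mouse of each area are not given, so areas may share animals and p-values over them may be too small.

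Taken as groups, the areas carried the RNA that their labels name. Tg, the hormone precursor made by follicular cells, was well above background on all 18 arrays and was called in no comparison, with log2 ratios of 1.01 ± 0.27 in dissected central, 1.34 ± 0.23 in normal central, 1.68 ± 0.80 in dissected peripheral and 1.51 ± 0.69 in normal peripheral thyroid (SD, n = 5, 5, 5 and 3). Central areas held more RNA of C cells, the calcitonin-producing cells: the calcitonin gene Calca differed by a log2 value of 4.50 between dissected central and dissected peripheral thyroid (limma, adjusted p = 0.00308) and by 3.83 between normal central and normal peripheral thyroid (limma, adjusted p = 0.0367). Dissected central replicate 2 stood apart, with a mean log2 ratio of -1.35 over the 9 tested C-cell markers, against -0.05 to 1.13 on the other dissected central arrays. Its value lay within the range of the normal peripheral arrays, -1.93 to -1.06, so in these markers it was like a peripheral array. Normal central replicate 3 stood apart in the parathyroid marker tested, with a log2 ratio of 3.99, against -5.17 to -1.80 on every other array. The share of gene probes with Cy5 well above background lay between 24.7% and 44.0% over the arrays, and the 4 weakest arrays were normal peripheral 1, dissected central 2, dissected peripheral 1 and dissected central 1. Each group had its own position on the slides, so position and group cannot be told apart.

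The Cy3 channel went against its label, which lists whole embryo, brain, lymphoid organs, gonads of both sexes and viscera such as liver and heart, but no thyroid. Its median intensity was 79200 for Tg, while of 31 markers of the listed tissues, chosen after the data were seen, 3 were above background in Cy3 on all arrays and 14 on none. Albumin of liver had a median Cy3 intensity of 120 and Myh6 of heart 124. On the same arrays the median Cy5 intensity of Tg was 303000, and the Cy5 and Cy3 signals of an array correlated at 0.887 to 0.982 over 19082 probes. Whether the mixture held thyroid RNA or Cy5 signal reached the Cy3 channel, which would draw ratios towards 0, was not tested. Cy3 signals correlated between arrays at 0.958 to 0.999, and differences between groups, which set ratios to that mixture against each other, were used here. The Cy3 intensity of Tg still ran from 21200 to 161000 over the arrays before normalization. Any Cy5 signal in Cy3 would draw differences between groups towards 0 as well.

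Probe identity decides much of what can be said of this family, so the start of the probes that the results turn on is shown. Each line gives the first 30 of 60 bases, and coordinates follow the scanner files, which use the build mm7. The first pair is assigned to Egfr, the second pair is assigned to Erbb3 and shows its brightest probe beside the brightest that carries the accession of the Erbb3 mRNA, and the last lines are for Errfi1, Ereg and Egf.
Egfr, A_52_P106259: gttgcaagccactctaactgtagcaatgaa
Egfr, A_51_P392242: caagaggttaacactacggactagccattc
Erbb3, A_52_P432949: gttgcagatacacactcattacaagccaat
Erbb3, A_51_P342050: attaaatggatggcccttgagagtatccac
Errfi1, A_51_P382393: ctattcagtatttcctggggattgtttgct
Ereg, A_51_P171215: acacagatttcccattatattgtgtataca
Egf, A_52_P38627: ataaatgatgtgatctacatagaagtctta

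The Egfr probe A_52_P106259 lies at chr11:16865821-16865880 on the plus strand and is assigned to NM_207655, and A_51_P392242 lies at chr11:16839391-16839450 on the plus strand and is assigned to NM_007912. The Erbb3 probe A_52_P432949 lies at chr10:128069461-128069520 on the minus strand and carries a predicted accession, while A_51_P342050 lies at chr10:128073907-128073966 on the same strand and carries NM_010153. The Errfi1 probe lies at chr4:149857959-149858018 on the plus strand, the Ereg probe at chr5:91080900-91080961 on the plus strand and the Egf probe at chr3:129517262-129517321 on the minus strand. Among all 253 pairs of the 23 probes, a shared stretch of 40 bases joined a single overlapping pair of Erbb3 probes, and no other pair shared more than 11 bases. The probes therefore read separate sequences, apart from that pair. The exon or untranslated region under each probe was not determined.

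Of the 6 ligands, Tgfa, Areg and Btc gave no signal that the arrays could tell from background, and Egf gave little. Tgfa, a ligand of Egfr first known from transformed cells, had 2 probes with Cy5 intensities of 74.0 to 167 and 71.5 to 150, and neither was well above background on any of the 18 arrays. Areg, the ligand amphiregulin, had a single probe at 65.7 to 148, and Btc, betacellulin, had 2 probes at 78.4 to 156 and 60.7 to 104, again on no array. The probe of Egf, the founding ligand, was well above background on 3 arrays, namely 1 normal central, 1 dissected peripheral and 1 normal peripheral, at intensities of 83.2 to 180. For Tgfa, Areg and Btc no difference was detectable at this signal, which does not show that the RNA is absent.

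Ereg and Hbegf were the ligands that could be followed on every array. The bright Ereg probe had Cy5 intensities of 137 to 866 and the Hbegf probe 127 to 508, both well above background on all 18 arrays. A further Ereg probe, A_51_P157223, lies on the other strand, carries an unnamed cDNA accession, and was well above background on 2 arrays. It was not used for Ereg.

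Receptor probes differed widely in brightness within a gene. Of 6 Egfr probes, 2 were well above background on all 18 arrays, and the others on 14, 7, 7 and 0. Erbb2, the partner receptor without a ligand, had a probe above background on 5 arrays and a second on none. Of 5 Erbb3 probes, A_52_P432949 was above background on all 18 arrays, whereas the 4 probes with the Erbb3 mRNA accession were so on 4, 1, 0 and 0. The single Errfi1 probe reached the highest intensity of all members, at 145 to 5890 and above background on all 18 arrays, and no member probe was saturated on any array.

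**Figure D1:**
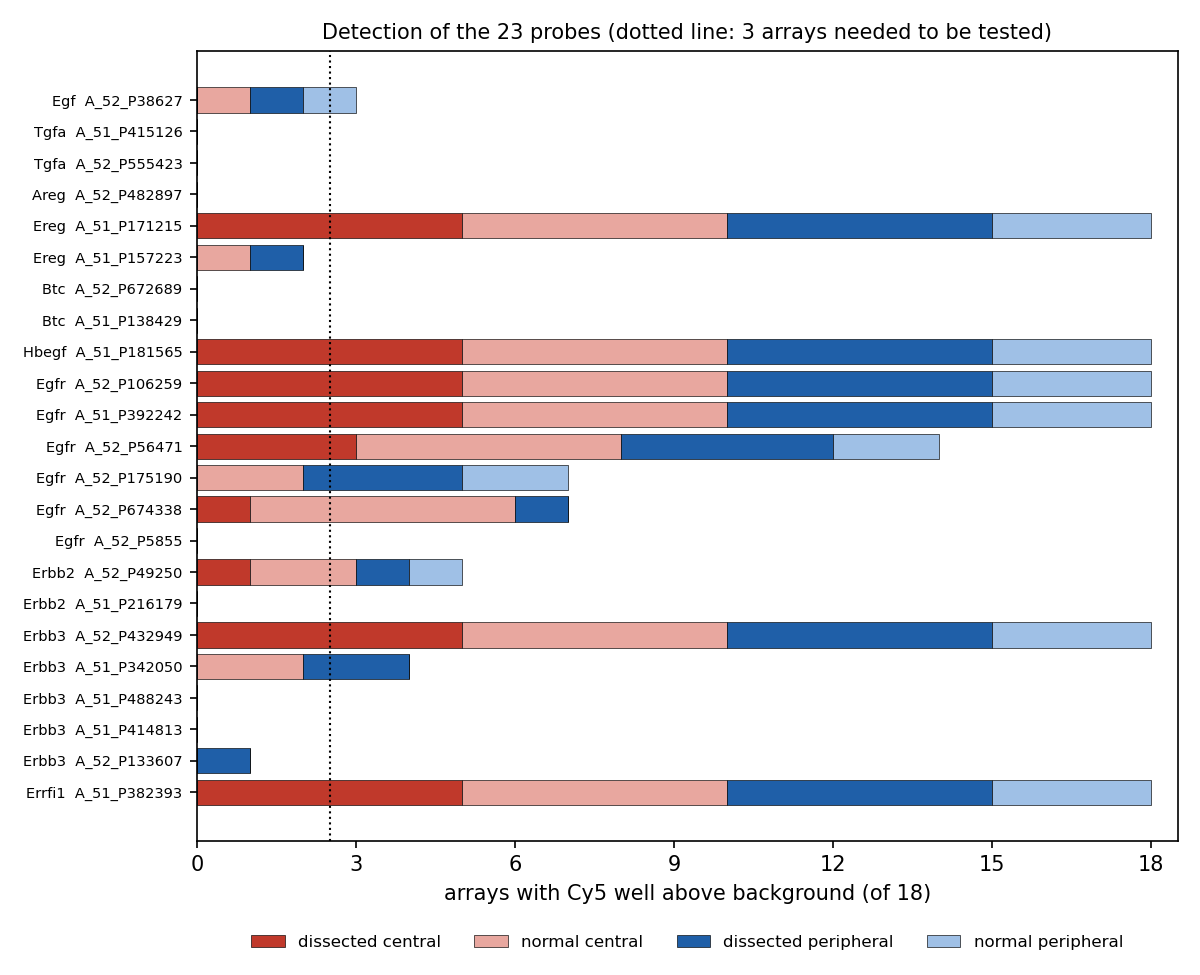
Number of arrays, of 18, on which the Cy5 signal of each of the 23 probes was well above background, stacked by group, with probes ordered by role of the gene and then by brightness, and a dotted line at the 3 arrays needed for testing. Ereg, Hbegf, 2 Egfr probes, 1 Erbb3 probe and Errfi1 reach all 18 arrays, while the Tgfa, Areg and Btc probes reach 0.

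The weak probes had a higher median G and C content than the bright ones. The median G and C content was 45.0% over the 11 probes that failed the filter, 40.8% over the 12 that passed and 40.0% over all 41174 gene probes.

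The main question is whether the family changed after partial thyroidectomy. In the central area none of the 7 tested members passed the test, with 4 measured higher and 3 lower in dissected than in normal thyroid and a median log2 difference of 0.06, against -0.01 over all genes. No gene of the array passed in that comparison (limma, 0% of 14664 genes called at an adjusted p under 0.05), although 766 genes, or 5.22%, had an unadjusted p under 0.05, none of them a member. Markers of other cells stood apart in these groups without a call. The mean log2 ratio was 0.44 ± 0.50 in dissected and -0.32 ± 0.32 in normal central thyroid for mast cells (SD, n = 5 each). In the same order it was -0.15 ± 1.02 and -1.08 ± 0.80 for skeletal muscle and 0.28 ± 1.01 and 1.02 ± 0.35 for C cells. For the 2 tested B-cell markers it was -0.19 ± 0.76 and 0.56 ± 0.28, and for the parathyroid marker -4.11 ± 0.68 and -2.78 ± 3.8. The part of these cells in the members' values was not tested. In the peripheral area none of the 7 passed either, with 2 higher and 5 lower in dissected thyroid and a median of -0.11, against 0.01 over all genes. There too limma called 0% of the genes, 1225 genes or 8.35% had an unadjusted p under 0.05, and Errfi1 was the member among them. The arrays are few: for the median gene the 95% interval of a difference reached 0.41 to either side in the central and 0.47 in the peripheral comparison, on the log2 scale.

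**Figure D2:**
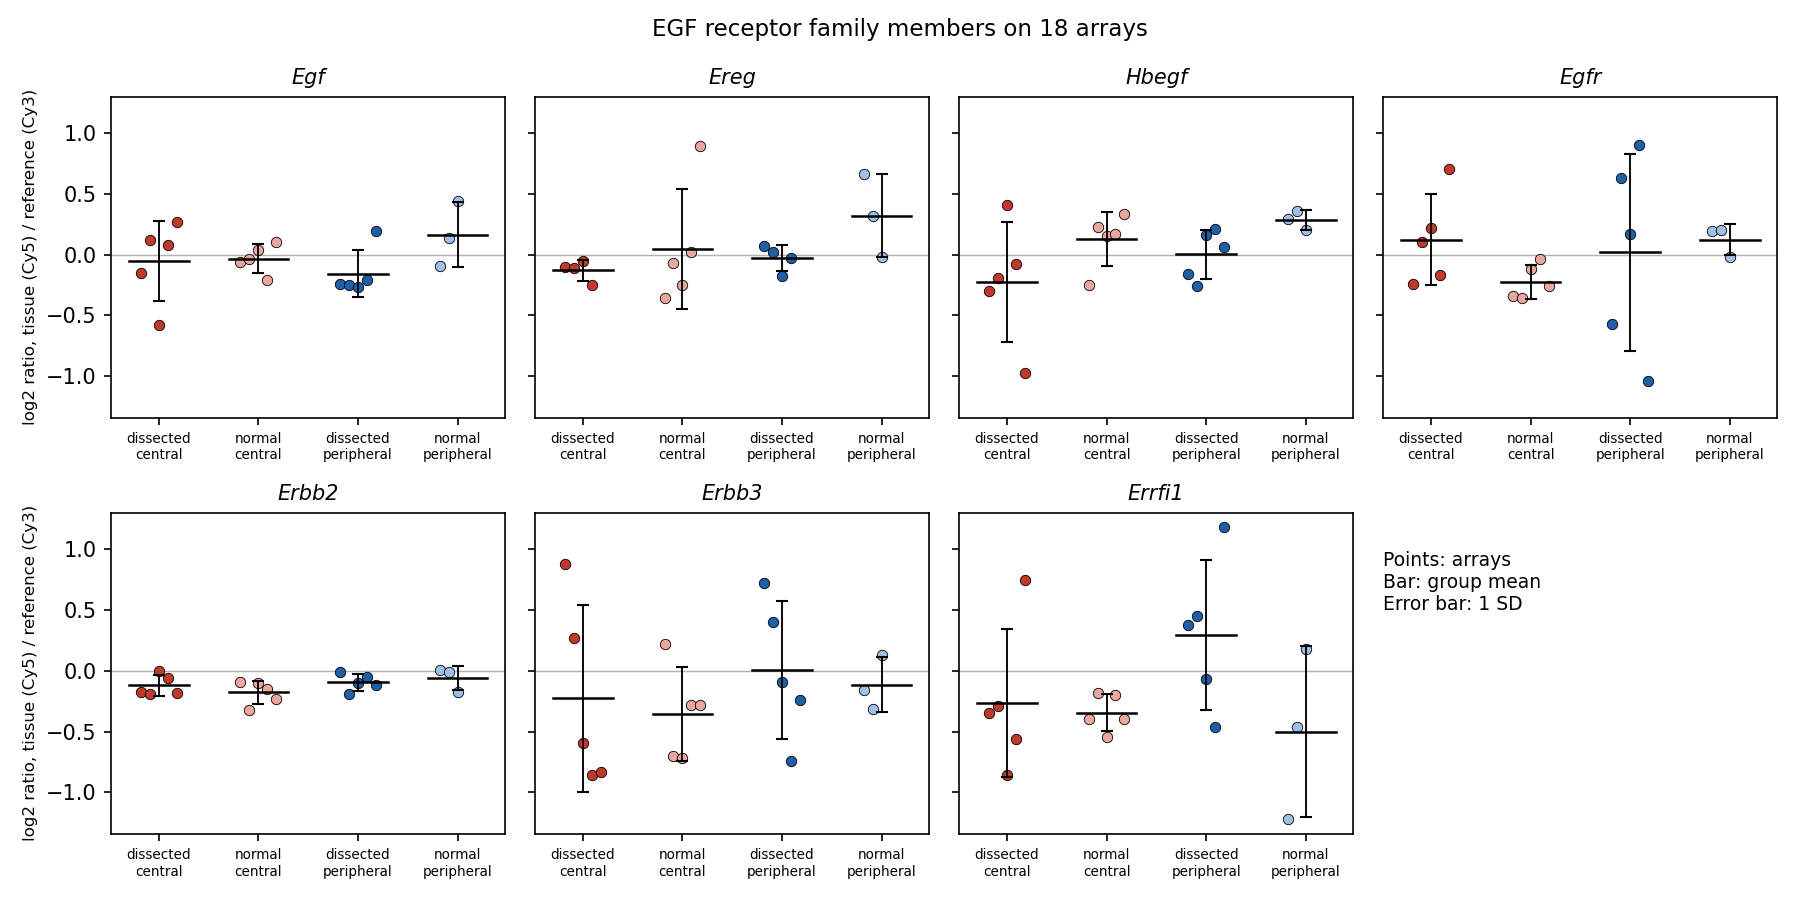
Log2 ratio of tissue (Cy5) over the Cy3 mixture for the 7 tested members on each of the 18 arrays, with group means and error bars of 1 SD. Errfi1 has the widest spread of group means, with 0.29 in dissected peripheral thyroid and -0.50 in normal peripheral thyroid, and its arrays overlap between these groups.

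Errfi1, the feedback inhibitor of the receptor, had the largest measured difference of the family. Its log2 ratios were 0.38, 0.45, -0.07, -0.46 and 1.18 on the dissected peripheral arrays, against -1.22, -0.46 and 0.18 on the normal peripheral arrays. Replicates 1, 2 and 5 of dissected thyroid lay above every normal value and the others within the normal range, so the groups overlap. The difference was 0.80 ± 0.36 (SE), a 1.74-fold higher ratio with a 95% interval of 0.03 to 1.56 on the log2 scale (limma, adjusted p = 0.593).

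That difference of Errfi1 did not hold within the batches. It was 1.60 and 0.91 on the slides of the second scan day that carried both groups and -0.63 on the slide of the first, and by scan day it was -0.44 and 1.51. Without normal peripheral replicate 1, the array with the fewest probes above background, it was 0.44 (limma, adjusted p = 0.999), and without dissected peripheral replicate 5 it was 0.58. The 8 tested follicular cell markers averaged 0.29 ± 0.23 in dissected peripheral and 0.09 ± 0.16 in normal peripheral thyroid (SD, n = 5 and 3). Of these, 7 of 8 were higher in dissected thyroid. The 9 tested C-cell markers averaged -2.44 ± 0.15 and -1.60 ± 0.47 in these groups, without overlap of the arrays, and 0 of 9 were higher. For the 2 tested B-cell markers the averages were -2.31 ± 0.23 and -1.57 ± 0.20. The part of these cells in the Errfi1 result was not tested. In this bulk RNA, more RNA of a gene per cell and more cells that express it cannot be told apart.

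In the central area Errfi1 gave log2 ratios of -0.35, -0.29, -0.86, -0.56 and 0.75 in dissected thyroid, against -0.40, -0.18, -0.54, -0.20 and -0.40 in normal thyroid. Dissected central replicate 5 was alone above 0 in these groups. The difference was 0.08 ± 0.31 (SE; limma, adjusted p = 0.998), and it was -0.17 without that array. The change after dissection in the central area minus that in the peripheral area was -0.72 ± 0.48 for Errfi1 (SE; 95% interval -1.73 to 0.30; limma, adjusted p = 0.795), so a difference between the areas was not shown, and without normal peripheral 1 the value was -0.36.

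Hbegf, a ligand that binds heparin and is known as an immediate response to growth stimuli, was measured lower in dissected thyroid in both areas without passing the test. Its log2 ratios were -0.30, -0.19, 0.41, -0.08 and -0.97 in dissected central thyroid, against -0.25, 0.23, 0.15, 0.17 and 0.33 in normal central thyroid. Replicate 5 gave both the lowest dissected value and the highest normal value, and the highest value of all was also from a dissected area. The difference was -0.35 ± 0.19 (SE; 95% interval -0.76 to 0.05; limma, adjusted p = 0.988), and without dissected central replicate 5 it was -0.17.

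In the peripheral area Hbegf was at -0.16, -0.26, 0.16, 0.21 and 0.06 in dissected thyroid, against 0.29, 0.36 and 0.20 in normal thyroid. The highest dissected value lay just above the lowest normal value, so the groups overlap by a single array on each side. The difference was -0.28 ± 0.22 (SE; 95% interval -0.75 to 0.18; limma, adjusted p = 0.759). By scan day Hbegf differed by 0.00 and -0.59 in the central area and by -0.02 and -0.44 in the peripheral area, so the measured difference was near 0 on the first day in both areas.

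Ereg, the ligand epiregulin, which binds Egfr and Erbb4, lacked a value on dissected central 5 and dissected peripheral 5, where its spot was left out as non-uniform. Its log2 ratios were -0.10, -0.11, -0.05 and -0.25 in dissected central thyroid, against -0.36, -0.07, -0.25, 0.02 and 0.89 in normal central thyroid. The dissected values lay inside the normal range, and normal central 5 was far above the rest. The difference was -0.17 ± 0.21 (SE; limma, adjusted p = 0.998), and it turned to 0.04 without normal central 5. In the peripheral area Ereg was at 0.07, 0.02, -0.18 and -0.03 in dissected thyroid, against 0.66, 0.32 and -0.02 in normal thyroid, a difference of -0.35 ± 0.24 (SE; limma, adjusted p = 0.723). Without normal peripheral 1, the array with the fewest probes above background, that difference was -0.18, and with the scanner program's ratio it was -0.91. Over the 16 arrays with a value, the Ereg ratio correlated at -0.59 with the mean of the follicular cell markers. That was the largest in size over all members and marker lists compared, and it is a description. The part of those cells in the Ereg values was not tested.

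Egf stayed near the background, so its ratios carry little. They averaged -0.05 ± 0.33 in dissected central and -0.03 ± 0.12 in normal central thyroid, and -0.16 ± 0.19 in dissected peripheral and 0.16 ± 0.27 in normal peripheral thyroid (SD, n = 5, 5, 5 and 3). No dissected central array had the probe well above background, so no fold is given for the central comparison (limma, adjusted p = 0.998). In the peripheral area the difference was -0.32 ± 0.18 (SE; limma, adjusted p = 0.639), from 1 array above background in each group, and it was -0.18 without normal peripheral 3.

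Egfr, the receptor shared by all the ligands listed, was read by several probes that did not move together. On the brightest probe, A_52_P106259, the log2 ratios were -0.24, 0.10, 0.22, -0.17 and 0.70 in dissected central thyroid, against -0.34, -0.36, -0.12, -0.04 and -0.26 in normal central thyroid. All normal values lay below 0 and 3 of 5 dissected values above it, with overlap between -0.24 and -0.04. The difference was 0.35 ± 0.29 (SE; 95% interval -0.25 to 0.95; limma, adjusted p = 0.998). On A_51_P392242 the ratios were 0.31, -0.20, 0.30, 0.06 and 0.94 in dissected central thyroid, against -0.18, -0.25, -0.20, 0.02 and 0.03 in normal central thyroid, a difference of 0.40 ± 0.21 (SE; limma over all 19082 probes, adjusted p = 0.997).

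Dissected central replicate 5 gave the highest Egfr value of its group on both of these probes, and without it the differences were 0.20 on A_52_P106259 and 0.23 on A_51_P392242. In the peripheral area A_52_P106259 gave -0.57, 0.63, 0.17, 0.90 and -1.04 in dissected thyroid, against 0.19, 0.20 and -0.02 in normal thyroid. The dissected arrays thus spread far to both sides of the normal ones, and the difference was -0.11 ± 0.33 (SE; limma, adjusted p = 0.958). The spread was not seen on A_51_P392242, where the dissected peripheral arrays ran from -0.23 to 0.31 and the normal peripheral arrays from -0.81 to 0.25.

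Over the 18 arrays the log2 ratios of the 2 brightest Egfr probes correlated at only 0.30, while A_51_P392242 and A_52_P56471, which carry the same accession, correlated at 0.84. A_52_P106259 and A_52_P674338 also carry one accession, but correlated at 0.03, the latter being above background on 7 arrays. The probes share arrays and dyes, and these values are descriptions. The 5 tested Egfr probes gave central differences of 0.35, 0.40, 0.23, -0.03 and -0.29 in order of brightness, none of them called (limma, adjusted p of 0.997 to 0.999). The 3 brightest were measured higher in dissected central thyroid and the 2 dimmest lower. The dimmest were A_52_P175190, above background on no dissected central array, and A_52_P674338, above background on 1 dissected central and all 5 normal central arrays.

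**Figure D3:**
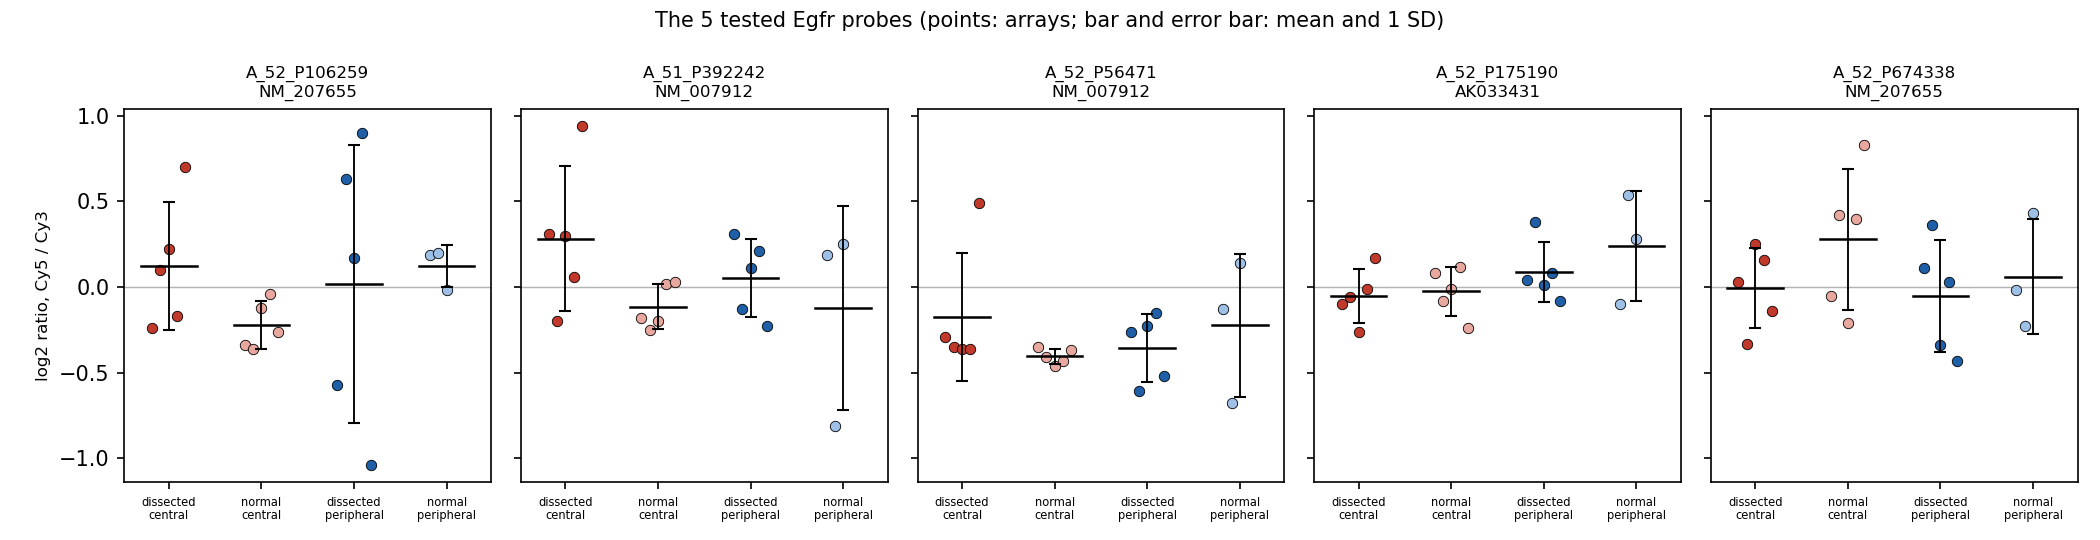
Log2 ratio of tissue (Cy5) over the Cy3 mixture on the 5 tested Egfr probes, ordered from bright to dim, for each of the 18 arrays by group, with group means and error bars of 1 SD. The dissected peripheral arrays spread from -1.04 to 0.90 on A_52_P106259 and from -0.23 to 0.31 on A_51_P392242.

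Erbb2 was the steadiest receptor and also a dim one. Its ratios averaged -0.12 ± 0.08 in dissected central, -0.18 ± 0.10 in normal central, -0.09 ± 0.07 in dissected peripheral and -0.06 ± 0.10 in normal peripheral thyroid (SD, n = 5, 5, 5 and 3). The differences after dissection were 0.06 ± 0.09 in the central and -0.03 ± 0.11 in the peripheral area (SE; limma, adjusted p = 0.998 and 0.957). Their 95% intervals, -0.14 to 0.25 and -0.26 to 0.19, are the narrowest of the family, but intensities of 84.5 to 185 lie close to background, where ratios are drawn towards 0 by the offset added before the logarithm.

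Erbb3, the receptor for neuregulins, varied more between arrays than between groups on its bright probe. The log2 ratios were 0.88, 0.27, -0.59, -0.86 and -0.83 in dissected central thyroid, against 0.22, -0.70, -0.72, -0.28 and -0.28 in normal central thyroid. Both groups held values above and below 0, and the difference was 0.12 ± 0.32 (SE; limma, adjusted p = 0.998). In the peripheral area the values were 0.72, 0.40, -0.09, -0.74 and -0.24 in dissected thyroid, against -0.16, -0.31 and 0.13 in normal thyroid, a difference of 0.13 ± 0.38 (SE; limma, adjusted p = 0.956). Replicate 1 was the highest array in each of these groups except normal peripheral thyroid, and without the 4 weakest arrays the central difference was -0.41.

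Whether the bright Erbb3 probe reads Erbb3 is uncertain. Its log2 ratios correlated at 0.04 with those of A_51_P342050 over the 18 arrays, and at 0.53, 0.49 and -0.03 with the 3 other probes of the Erbb3 mRNA. In the RefSeq gene table the gene next to Erbb3 is Pa2g4, whose protein was found as a partner of ErbB3, and whether the probe reads its RNA was not tested. On A_51_P342050 the ratios averaged -0.20 ± 0.14 in dissected central, 0.02 ± 0.24 in normal central, 0.10 ± 0.26 in dissected peripheral and -0.11 ± 0.14 in normal peripheral thyroid (SD, n = 5, 5, 5 and 3), and no dissected central array had it above background. The ratios of the bright probe also correlated with the means of the skeletal muscle markers at 0.51 and of the C-cell markers at -0.43 over the 18 arrays. Those were the largest in size for this probe over all marker lists compared. With the share of probes above background the correlation was -0.40. All of these values are descriptions.

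**Figure D4:**
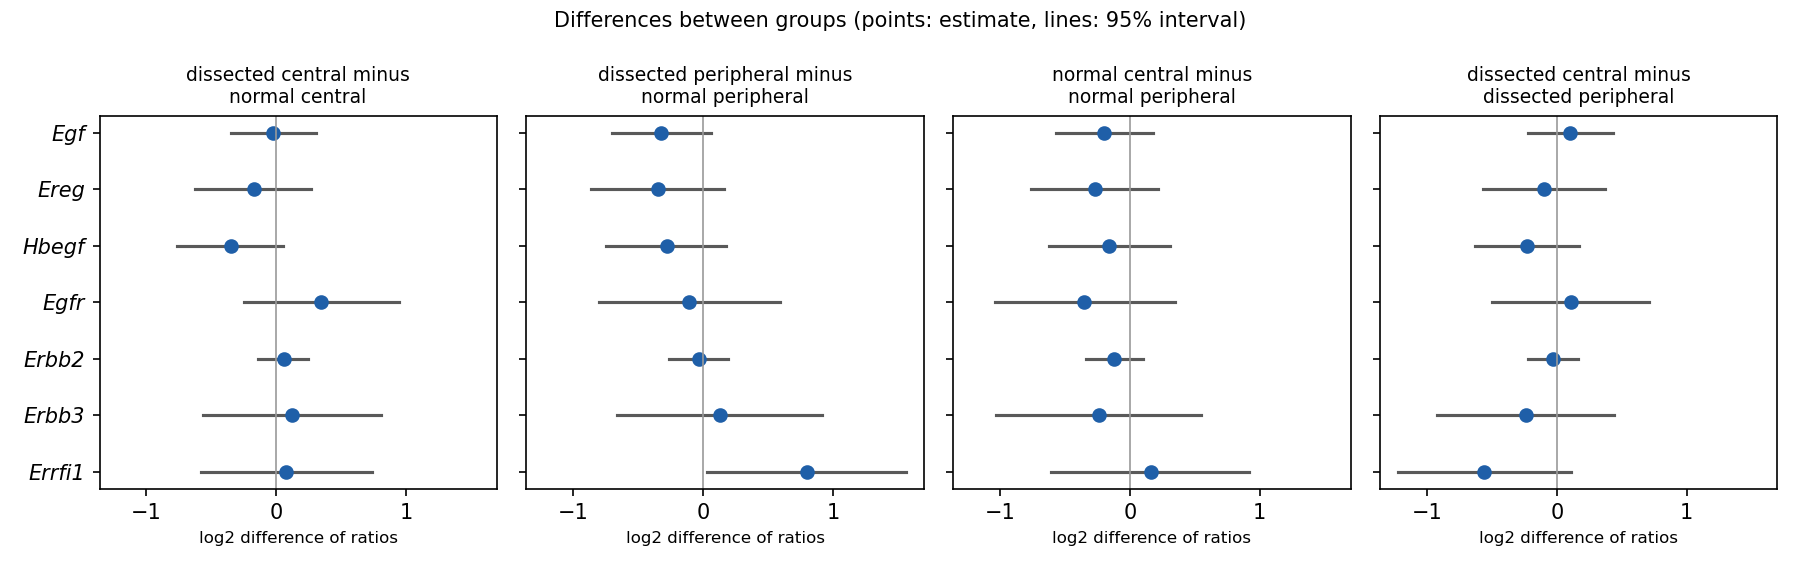
Differences of the log2 ratio between groups for the 7 tested members in 4 comparisons, with points for the estimates and lines for their 95% intervals. Of the 28 intervals drawn, that of Errfi1 in dissected peripheral minus normal peripheral thyroid, from 0.03 to 1.56, is the one that leaves out 0.

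The second question of the design is how the areas differ. Between dissected central and dissected peripheral thyroid no member passed the test, with 2 measured higher and 5 lower in the central area and a median log2 difference of -0.10, against 0.00 over all genes. In that comparison limma called 86 genes, or 0.586% of all, and 1088 had an unadjusted p under 0.05, none of them a member on its brightest probe. Between normal central and normal peripheral thyroid no member passed either, with 1 higher and 6 lower in the central area and a median of -0.20, against 0.01 over all genes. There limma called 41 genes, or 0.28%, and 1259, or 8.59%, had an unadjusted p under 0.05, again without a member. These counts of called genes depended on single arrays: without dissected central 2 limma called 173 genes between the dissected areas, and without normal peripheral 2 it called 1 between the normal areas, in both cases no member.

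Errfi1 was measured lower in the central than in the peripheral area of dissected thyroid on every slide. The 5 differences within slides ran from -0.79 to -0.10, and the overall difference was -0.56 ± 0.31 (SE; 95% interval -1.22 to 0.11; limma, adjusted p = 0.775). That model left slide out, so its SE and interval do not measure the spread of the differences within slides. Over all alternatives, slide as a block among them, the smallest adjusted p of this difference was 0.514 (limma). The groups overlap, since dissected central 5 at 0.75 lay above 4 of the 5 dissected peripheral arrays, and without dissected peripheral 5 the difference was -0.34. Between the areas of normal thyroid the difference of Errfi1 was 0.16 ± 0.36 (SE; limma, adjusted p = 0.944), and it was -0.20 without normal peripheral 1. The C-cell markers followed the same contrast, with 9 of 9 higher in dissected central than in dissected peripheral thyroid and 8 of them called. Their mean log2 ratio ran from -1.35 to 1.13 over the dissected central and from -2.70 to -2.31 over the dissected peripheral arrays, and their part in the Errfi1 result was not tested.

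Egfr was the member whose arrays did not overlap between areas, in normal thyroid and on the probe A_52_P106259. The 5 normal central values, -0.36 to -0.04, lay below the 3 normal peripheral values, -0.02 to 0.20. The gap between -0.04 and -0.02 is small beside the spread within either group, and the difference was -0.35 ± 0.33 (SE; limma, adjusted p = 0.819). Of all genes 189, or 1.29%, had normal central arrays all below the normal peripheral ones, and 712, or 4.86%, had no overlap in either direction. In the other comparisons none of the 7 tested members was free of overlap on its brightest probe. Of all genes 1% were free of overlap for dissected against normal central thyroid (0.43% higher and 0.573% lower). The share was 4.21% for dissected against normal peripheral thyroid and 1.67% for dissected central against dissected peripheral thyroid (1.21% higher and 0.464% lower). The untested Btc probe A_52_P672689 ran from -0.22 to -0.11 in dissected central and from -0.07 to 0.11 in normal central thyroid, without overlap. That probe was well above background on no array. The other bright Egfr probe, A_51_P392242, differed by 0.01 ± 0.24 (SE; limma, adjusted p = 0.998), so the separation was not repeated on it. Between the dissected areas Egfr differed by 0.11 ± 0.29 (SE; limma, adjusted p = 0.974).

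The remaining members gave no separation between areas. In normal thyroid the central minus peripheral differences were -0.16 for Hbegf, -0.27 for Ereg, -0.24 for Erbb3, -0.20 for Egf and -0.12 for Erbb2, with limma's adjusted p between 0.787 and 0.907. In dissected thyroid they were -0.23 for Hbegf, -0.10 for Ereg, -0.24 for Erbb3, 0.10 for Egf and -0.03 for Erbb2, with adjusted p between 0.898 and 0.975 by limma. All of these intervals include 0, and single arrays moved the values: in normal thyroid Ereg was at -0.10 without normal peripheral 1, Egf at -0.06 and Erbb3 at -0.12 without normal peripheral 3, and in dissected thyroid Hbegf was at -0.04 without dissected central 5 and Erbb3 at -0.06 without dissected peripheral 1. The value of Egf between the dissected areas carries little, since its probe was well above background on 0 dissected central arrays and 1 dissected peripheral array. In the F test among the 4 groups limma called 155 genes, or 1.06%, and no member. The smallest adjusted p of a member in that test was 0.687 for Errfi1 (limma). No member passed when the change after dissection was compared between the areas. There limma called 0% of genes, and 852, or 5.81%, had an unadjusted p under 0.05.

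Ligands and inhibitor did not move as a block across the arrays. The log2 ratios of Hbegf and Errfi1 correlated at -0.51 over 18 arrays and those of Hbegf and Ereg at 0.49 over 16, the largest values among the 21 pairs of members. These arrays share the Cy3 mixture and differ in depth, and the values are descriptions. The patterns most like that of Errfi1 belonged to the transcripts AY074887 and TC1501700 and the probe A_52_P1037106, at correlations of 0.919, 0.907 and 0.815 over 18 arrays. The genes most like Hbegf were Zbtb25 at 0.88, C330020G15Rik at 0.829 and Myct1 at 0.823.

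Around the members, 67 genes of the pathway were listed in 6 groups, of which 52 were tested. None was called in any comparison by limma. An unadjusted p under 0.05 was reached by 2 of the 52 genes between dissected and normal central thyroid and by 5 between dissected and normal peripheral thyroid. Between the dissected areas 2 reached it, and between the normal areas 4. Of all genes 5.22%, 8.35%, 7.42% and 8.59% had such a p in these comparisons, in the same order. The adaptors and kinases that lead from the receptor to ERK were all measured higher in dissected than in normal peripheral thyroid, 13 of 13 with a median log2 difference of 0.25, against 51.1% of all genes higher and a median of 0.01. Centrally, 8 of these 13 were higher in dissected thyroid, at a median of 0.05. That all 13 were higher rests on the brightest probe of each gene, and not every dimmer probe of these genes was higher. All genes of a list were read on the same arrays, so their directions are not independent of each other. Of the ERK-induced genes, such as Fos and Egr1, 9 of 10 tested were measured higher in dissected than in normal peripheral thyroid at a median of 0.18, and 5 of 10 in dissected than in normal central thyroid, at a median of -0.01. In the other lists, dissected against normal peripheral thyroid, 9 of 13 genes of receptor turnover and feedback were measured higher (median 0.13), 3 of 4 of ligand shedding (median 0.13), 3 of 8 of PI3K, STAT and Src signalling (median -0.15) and 0 of 4 other ligands and receptors (median -0.20).

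Shc1, the adaptor that links activated receptors to Grb2 and RAS, came nearest to the threshold. Its log2 ratios were -0.05, 0.68, 0.08, 0.56 and 0.79 in dissected peripheral thyroid, against -0.22, -0.31 and -1.0 in normal peripheral thyroid. Every dissected array lay above every normal one, a pattern that 2.17% of all genes showed in this direction. The difference was 0.92 ± 0.22, or 1.89-fold (SE; 95% interval 0.46 to 1.38; limma, adjusted p = 0.354), and it was 1.55, 0.17 and 0.99 within the 3 slides that held both groups. On 1 of the 3 normal peripheral arrays Shc1 was not well above background.

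In the central area Shc1 was at 0.31, 0.15, 0.26, 0.16 and 0.13 in dissected thyroid, against 0.18, -0.36, -0.15, -0.22 and -0.62 in normal thyroid. A single normal array, replicate 1, reached into the dissected range. The difference was 0.44 ± 0.19 (SE; limma, adjusted p = 0.899), and Shc1 was higher in dissected thyroid within each of the 5 slides, by 0.13 to 0.75. In the F test among the 4 groups its adjusted p was 0.108 by limma.

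Lrig3, a membrane protein related to Lrig1, which promotes the loss of ErbB receptors, was the next in rank. Its log2 ratios were -0.02, -0.48, -0.57, -0.68 and -0.35 in dissected peripheral thyroid, against 0.68, 0.44 and 0.19 in normal peripheral thyroid. The groups did not overlap, as was so for 2.05% of all genes in this direction, and the difference was -0.86 ± 0.22 (SE; limma, adjusted p = 0.386), with -0.87, -0.71 and -0.92 within slides. Lrig3 averaged 0.17 ± 0.44 in dissected central and 0.04 ± 0.19 in normal central thyroid (SD, n = 5 each), and the difference of the change between the areas was 0.99 ± 0.29 (SE; limma, adjusted p = 0.79). Between the dissected areas it differed by 0.59 ± 0.19 (SE; limma, adjusted p = 0.297).

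**Figure D5:**
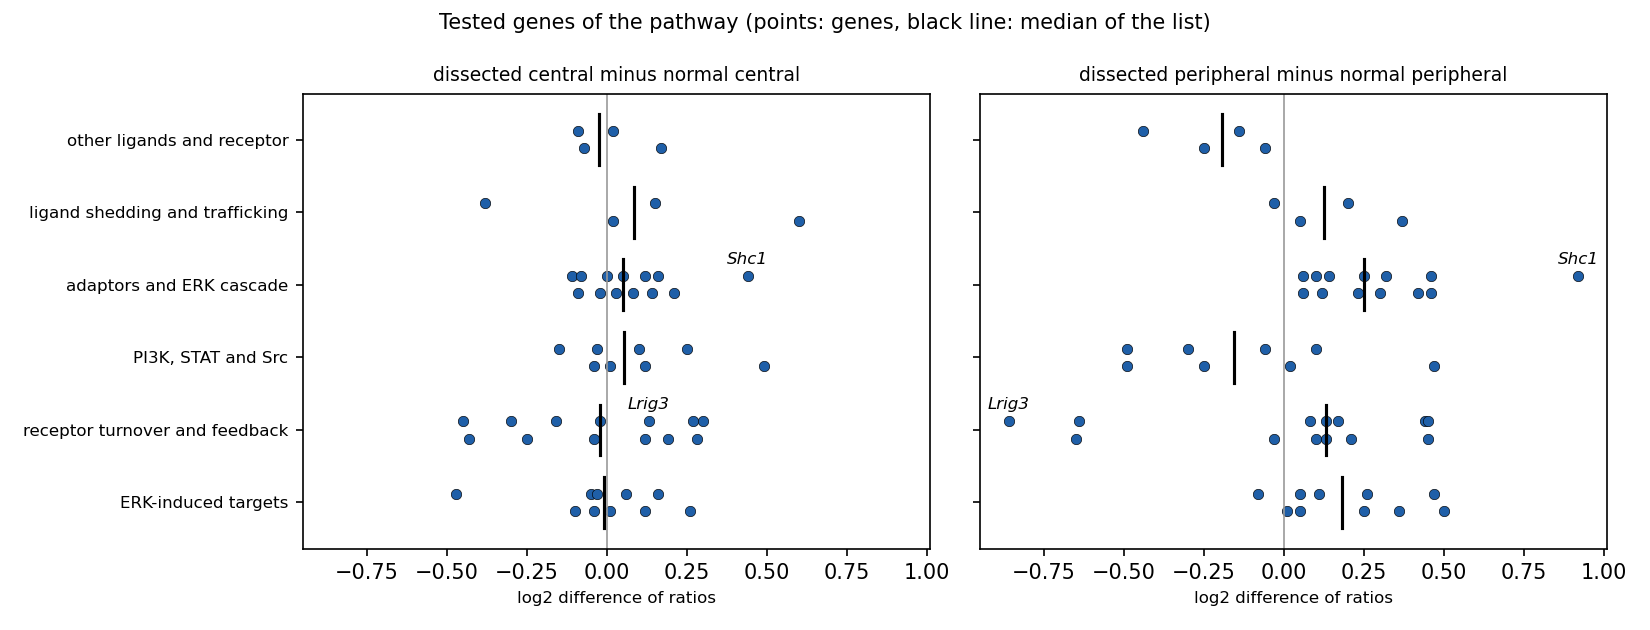
Differences of the log2 ratio for the 52 tested pathway genes in 6 lists, dissected central minus normal central thyroid on the left and dissected peripheral minus normal peripheral thyroid on the right, with a point for each gene and a black line at the median of the list. In the peripheral panel all 13 adaptors and kinases lie right of 0 with Shc1 farthest at 0.92, and none of the 52 genes was called.

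Other pathway genes with small p-values were spread over the roles. Timp3, an inhibitor of the ligand-releasing protease Adam17, differed by 0.60 ± 0.29 between dissected and normal central thyroid (SE; limma, adjusted p = 0.957). Adam17 itself was well above background on 1 of 5 dissected central and 4 of 5 normal central arrays, and its difference of -0.38 ± 0.16 (SE; limma, adjusted p = 0.899) ran from -1.66 to -0.28 over the alternatives. Dusp4, a phosphatase of ERK, was not well above background on any dissected peripheral array, and was so on 2 of 3 normal peripheral arrays. With dissected values raised at least to the lowest signal above background, its group mean was 1.13-fold lower in dissected peripheral thyroid. That value carries no interval, and the difference was not called (limma, adjusted p = 0.569). Dusp6, another ERK phosphatase, was at 0.26 to 0.77 on the 5 normal central arrays, against -0.82 to -0.06 on the 3 normal peripheral arrays, without overlap, as 3.57% of all genes were in this direction, and differed by 0.81 ± 0.33 (SE; limma, adjusted p = 0.491).

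Between the normal areas Timp3 differed by -0.78 ± 0.34 and Socs3, a feedback inhibitor of cytokine receptors, by 0.73 ± 0.34 (SE; limma, adjusted p = 0.527 and 0.562), and without normal peripheral 1 the Timp3 difference was -0.36. Between the dissected areas Epha2, a receptor tyrosine kinase for ephrins, differed by -0.56 ± 0.24 (SE; limma, adjusted p = 0.594). Dusp6 and Spry2, a feedback inhibitor of RAS signalling, had changes after dissection that differed between the areas by -0.90 ± 0.43 and 0.84 ± 0.43 (SE; limma, adjusted p = 0.79 for both), and a second Spry2 probe gave -0.30. None of these genes passed the test.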

How the data were processed

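Per the file headers, the deposited scanner files hold Cy5 and Cy3 spot intensity with local background from Agilent Feature Extraction 9.5.1.1; the submitters' processing notes name 8.5.1.1. The same deposited files carry the program's log10 ratio of Cy5 over Cy3 after its own correction. A further table deposited by the authors has linear ratios, and how they were made is not given in the sources used here. Over 40934 shared probes it followed the probe-centred Cy5 over Cy3 ratios computed here at correlations of 0.648 to 0.875, with column medians of 0.871 to 1.06, so that its direction and linear scale were read from the values, its centring is unknown beyond that, and it served only as an alternative.

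Here, mean intensities were corrected with normexp (offset 50) and normalized by loess within each array to log2 ratios of Cy5 over Cy3. Of 45018 spots per array, 1639 were controls (weight 0), and at most 108 non-uniform spots were left out. Probes were named through a RefSeq list of the assembly GRCm38.p6 (22951 by accession, 6659 by current symbol, 3109 by older symbol, 8455 as in the files). Probes needed a Cy5 signal well above background on at least 3 arrays, and the brightest such probe stood for its gene. One model of 4 group means over all 18 arrays was fitted with limma 3.58.1 in R 4.3.3, with two-sided p-values adjusted by Benjamini-Hochberg over 14664 genes and genes called at an adjusted p under 0.05. Values per probe came from the same fit over 19082 probes. The fit was tested on simulated data.

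Named were all members, any pathway gene called, the 3 pathway genes with the smallest p of each comparison, and the 3 genes most like the 2 members with the widest range of group means. A pathway gene that this rule names is not reported here. Members and lists were chosen with earlier results of these data known. Same-numbered arrays of compared groups deviated together at correlations of -0.07 to 0.23, and numbers were not treated as pairs in the main fit. Same-numbered arrays shared a slide both between dissected and normal central thyroid and between the dissected areas. In the first of these comparisons the correlations were -0.05 to 0.23. Between the dissected areas they were all positive, at 0.07 to 0.21. There 9 of 10 arrays correlated best with their own number. The main fit left out this likeness, and slide and replicate number were blocks in alternatives. Alternatives changed the background correction, the source of the ratio, the filter, the samples fitted, the blocks and the arrays left out. The number of arrays limits the precision.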

Additional observations from a re-analysis of the deposited data

Results flagged for a closer look

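Egf on dissected peripheral replicate 5 had a log2 ratio of 0.19, while the nearest of the other 4 dissected peripheral arrays was at -0.21. The gap made up 0.885 of the range of the group (n = 5), more than Dixon's test allows. The other 20 sets of member values tested in this way, of 21 in all, gave no such array, and chance gives about 1 in 20. The Egf probe was well above background on 1 dissected peripheral array.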

How the results depend on the processing

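No member was called by limma in any comparison under the alternatives that gave it a value, 27 to 30 for each difference (the fewest for Egf and Erbb2, which a stricter filter and the deposited table left out), and the smallest adjusted p of a member was 0.294. Of 1023 differences of members under an alternative, 993 kept their direction and 30 turned, all from differences that were not called, and the cause was not tested. No named pathway difference turned in 446 values. Pathway genes called were 0, but 1 with the scanner program's log ratio and 1 with the deposited value table, each time Shc1 in the F test (limma, adjusted p = 0.0158 and 0.0154).

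The turned values were these. For Egf, dissected minus normal central thyroid, 0.06 without background correction and 0.36 with the scanner's ratio, and -0.10 to 0.11 leaving out 1 array. For Ereg in that comparison, 0.06 with Cy5 alone, 0.25 with the deposited table, 0.04 with slide as a block, and -0.27 to 0.04 leaving out 1 array. For Hbegf, central minus peripheral change, 0.03 without background correction, 0.17 with Cy5 alone, and -0.23 to 0.11 leaving out 1 array. For Egfr, dissected minus normal peripheral thyroid, 0.28 with the deposited table, 0.07 without the 4 weak arrays, and -0.33 to 0.16 leaving out 1 array. For Egfr between the normal areas, 0.23 with the deposited table, and between the dissected areas, -0.16 to 0.33 leaving out 1 array. For Erbb2, 0.03 after dissection in the periphery with the scanner's ratio and 0.03 between the dissected areas without the 4 weak arrays. For Erbb3, -0.41 in the central and -0.07 in the peripheral area without the 4 weak arrays, and -0.15 to 0.28 and -0.05 to 0.31 leaving out 1 array. For Errfi1, -0.17 to 0.23 in the central area leaving out 1 array, and between the normal areas -0.20 without the 4 weak arrays and -0.20 to 0.50 leaving out 1 array.

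With the replicate number as a block, Ereg in the central area turned to 0.04 and Errfi1 in the periphery gave 0.69. The block changed no call of a member. Of all genes it called 4 between the normal areas, against 41 without it, 84 against 86 between the dissected areas, and 127 against 155 in the F test. Arrays correlated best with their own number in 5 of 10, 3 of 6, 2 of 6 and 9 of 10 cases in the 4 comparisons, the last being that between the dissected areas. Genes called over all alternatives ran from 1 to 95 between the normal areas, against 41, and from 21 to 193 between the dissected areas, against 86. The normal-area count was at most 13 when any of normal central 1 to 4 was left out, or either of normal peripheral 2 and 3. It was 24, 76, 25, 22, 25 and 27 without dissected central 1 or 2 or dissected peripheral 1, 2, 4 or 5, and 27 without normal central 5. The dissected-area count was 47 to 56 without dissected central 3, 4 or 5 or dissected peripheral 2 or 3, and 173 without dissected central 2. Signal limits Egf, Erbb2, Tgfa, Areg and Btc, which lay at or near background.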
